A study of Mus musculus with 10 samples.

Results

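Mptx1 and Mptx2 are the mouse mucosal pentraxins, and they were described here across crypts of the untreated, the inflamed and the carcinogen-treated distal colon. They are the 2 genes carrying those symbols among the 23364 in each deposited table, and they were chosen by their symbols with their group means in view, that is, selected on their level in control, DSS and AOM+DSS. The means of all 3 groups are therefore a description and were not tested.

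Pentraxins are secreted pattern recognition proteins whose identical subunits form rings. The best known, C-reactive protein and serum amyloid P, are made in the liver, bind microbial surfaces and dying cells in a calcium-dependent way, and recruit complement and Fc receptors. Mptx1 and Mptx2 encode short pentraxins of the same shape that are made in the intestinal epithelium. Mptx1 is known from the colon, where it is sensitive to diet, and Mptx2 is known as a Paneth cell product of the small intestine.

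The libraries were made from poly(A) RNA of distal colon crypts, which were detached by shaking in EDTA, a compound that binds calcium and so frees epithelial sheets. The 3 control libraries came from mice with no treatment. The 4 DSS libraries came from mice treated with dextran sulfate sodium, which injures and inflames the colon lining. The 3 AOM+DSS libraries came from mice given azoxymethane, a DNA-alkylating carcinogen, followed by DSS, and the submitters describe them as a cancer condition. The sources used here do not give strain, age, dose or time of treatment, nor whether tumours were separated from other mucosa. They also leave unsaid whether each library is a separate animal, so any p-value reflects only how far these samples spread, and that spread may be technical.

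The deposited tables hold group means of normalized reads, that is, read counts divided by a size factor for each library. Whole reads of single libraries were recovered from the many digits of these means, for 99.8% of genes in control, 87.2% in DSS and 99.9% in AOM+DSS. Within a group, libraries are lettered from the deepest, a, downwards, and the letters cannot be tied to the replicate numbers in the labels. Recovered genes held 15978230 to 17665432 reads per control library and 16198408 to 23640141 per AOM+DSS library. In DSS the resolved genes held 27.8% of the mean total, and size factors from 0.645 to 1.27 give the relative depth. The 11 pan-epithelial markers summed to 258455 normalized reads in the control mean, 290907 in DSS and 260844 in AOM+DSS, and none of them was at 0. The housekeeping genes Actb, Gapdh and Hprt differed from control by 0.41, 0.20 and -0.04 on the log2 scale in DSS and by 0.26, 0.05 and 0.09 in AOM+DSS.

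Mptx1 and Mptx2 are near-copies on mouse chromosome 1. In the GENCODE M21 annotation of GRCm38, Mptx1 spans 174330518 to 174332873 on the plus strand and Mptx2 spans 173274382 to 173277777 on the minus strand, each with 2 exons. The reads were mapped to the older mm9 build, so these positions do not apply to the deposited tables. The transcripts, of 799 and 794 bases, were identical at 734 of 794 aligned bases (92.4%), and the coding sequences at 91.9% of 657 bases. The opening 112 bases of both transcripts were the same. The coding part of that stretch is shown because a read that lies within it cannot be given to either gene by sequence, and its capitals mark the start codon.
Mptx1 and Mptx2, start of the coding sequence: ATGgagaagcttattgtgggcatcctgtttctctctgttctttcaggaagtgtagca
Of all windows of 50 bases in Mptx1, 17.9% also occurred in Mptx2, and of windows of 100 bases, 3.29% did. The sources used here do not give the read length or how reads that fit several genes were counted.

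**Figure D1:**
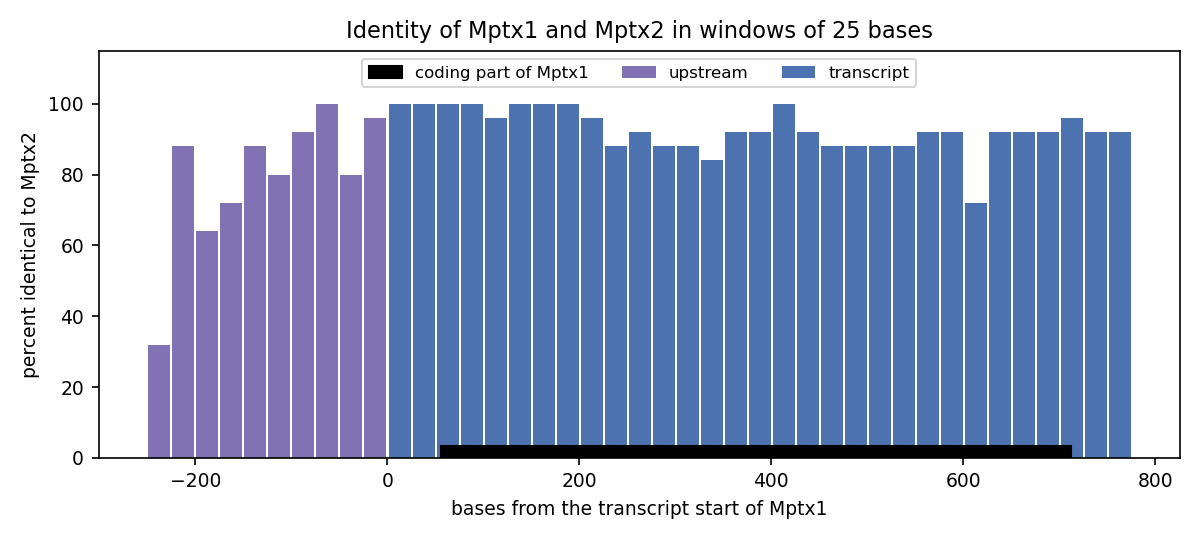
Percent of bases of Mptx1 that match Mptx2 (y axis) in windows of 25 bases, by distance in bases from the transcript start of Mptx1 (x axis); purple bars are upstream sequence, blue bars the transcript, and the black bar the coding part. The opening 4 windows of the transcript matched at 100% and the lowest transcript window at 72%. Bases of Mptx1 without an aligned Mptx2 base count as not matching. The upstream sequence of Mptx2 was shorter, with 229 bases against 250, so the 32% of the farthest upstream window does not measure divergence.

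The likeness went on upstream of the transcripts. The RefSeq promoter windows are shown because both genes were lower in the same groups. They are cut here where the GENCODE transcripts start and written 5′ to 3′ on each gene's strand, and capitals mark runs of at least 12 aligned bases that the genes share.
Mptx1 (GRCm38.p6, chr1:174330268-174330517, plus strand): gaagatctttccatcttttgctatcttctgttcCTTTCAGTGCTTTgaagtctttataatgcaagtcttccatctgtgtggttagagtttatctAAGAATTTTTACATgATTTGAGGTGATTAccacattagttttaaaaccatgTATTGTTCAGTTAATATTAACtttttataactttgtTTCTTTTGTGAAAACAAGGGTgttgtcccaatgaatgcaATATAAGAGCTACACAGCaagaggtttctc
Mptx2 (GRCm38.p6, chr1:173277778-173278006, minus strand): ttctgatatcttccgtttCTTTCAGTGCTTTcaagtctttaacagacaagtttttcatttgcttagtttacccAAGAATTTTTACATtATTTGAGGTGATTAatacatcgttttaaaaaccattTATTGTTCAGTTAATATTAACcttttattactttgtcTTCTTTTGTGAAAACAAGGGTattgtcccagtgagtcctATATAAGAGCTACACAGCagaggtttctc
The windows were identical at 198 of 228 aligned bases (86.8%), and 6 shared runs held 101 of those bases, the longest with 21. On either strand, TATAAG was found once in each window, in its last shared run, and in 6.81% of 27025 RefSeq promoters. GTTAATATTAAC, the longest stretch of the shared runs that equals its own reverse complement, was searched because it was seen there. It occurred once in each window, and the 2 of 27025 promoters that hold it are those of Mptx1 and Mptx2. Its presence in both was fixed by the way it was picked, and most stretches this long are rare among promoters. The STAT motif TTCNNNGAA was in neither window and in 7.18% of promoters. TATAAA was found 2 times in the Mptx1 window, not in that of Mptx2, and in 13% of promoters. The TCF motif CTTTGA was in the Mptx1 window only and in 14% of promoters, and the CDX motif TTTATNG was in the Mptx2 window only and in 10.2%. A match of letters is no evidence that a factor binds, and a window without a match says nothing about the factor.

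Mptx1 was the most abundant transcript of the control crypts per kilobase of transcript. Its control mean was 43757 normalized reads, or 0.232% of the group's total. Divided by length this gave 54764 reads per kilobase, rank 1 among 21730 genes with a GENCODE length. In DSS the mean was 15177 normalized reads, and the gene ranked 26 with 18995 reads per kilobase. In AOM+DSS the mean was 4675.6 normalized reads, and the gene ranked 194 with 5851.8 reads per kilobase.

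Mptx1 in DSS stood at 34.7% of its control mean, 2.88-fold lower, with a log2 ratio of -1.53. In AOM+DSS it stood at 10.7%, 9.36-fold lower, with a log2 ratio of -3.23. The AOM+DSS mean was 3.25-fold below the DSS mean, a log2 ratio of -1.70. The authors' deposited tables called Mptx1 lower in both comparisons at an adjusted DESeq p under 0.05. Genes called lower made up 1.78% of all genes tested in DSS and 3.35% in AOM+DSS. Because the same means chose the gene, nothing is read from these calls. Both comparisons share the 3 control libraries.

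The AOM+DSS mean of Mptx1 came mostly from a single library. Library a held 1406.9 normalized reads (1892 reads), library b held 160.5 (194 reads) and library c held 12459 (11278 reads). Library c was 77.6-fold above library b and held 88.8% of the group's normalized reads, and the SD over the 3 libraries was 6769.7. All 3 libraries were below the control mean, at 3.22%, 0.367% and 28.5% of it. The exact 95% counting interval of library b ran from 138.7 to 184.7 normalized reads, so counting error is far smaller than the gap between libraries. Without library c the AOM+DSS mean was 783.7 normalized reads, 55.8-fold below control, with a log2 ratio of -5.80. Single libraries of Mptx1 could not be resolved in control, where 8 combinations of whole reads matched the mean, nor in DSS, so their spread is unknown.

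Mptx2, at a far lower level, was lower in the same groups, and each of its libraries was resolved. In control, libraries a, b and c had 186.3, 216.3 and 206.5 normalized reads, with a mean of 203.1 ± 15.27 (SD, n = 3). In DSS, libraries a to d had 10.28, 26.37, 65.14 and 69.8 normalized reads, with a mean of 42.89 ± 29.19 (SD, n = 4). In AOM+DSS, its libraries a, b and c had 11.15, 2.481 and 43.09 normalized reads, with a mean of 18.91 ± 21.38 (SD, n = 3). The control libraries lay close together, and every treated library was below every control library. The DSS and AOM+DSS libraries overlapped, with AOM+DSS libraries a and c inside the DSS range and b below it.

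Mptx2 stood at 21.1% of its control mean in DSS, 4.73-fold lower, with a log2 ratio of -2.24. In AOM+DSS it stood at 9.31%, 10.7-fold lower, with a log2 ratio of -3.42. The log2 ratio of AOM+DSS to DSS was -1.18, a 2.27-fold gap between groups whose libraries overlap. The authors' deposited tables called Mptx2 lower in both comparisons, which again only restates the choice of the gene. The coefficient of variation was 7.52% in control, 68% in DSS and 113% in AOM+DSS, so the treated libraries were more scattered than the control libraries. Few reads stand behind these values: 607 in control, 136 in DSS and 57 in AOM+DSS. AOM+DSS library b had 3 Mptx2 reads, and its exact 95% counting interval ran from 0.5117 to 7.252 normalized reads. Intervals cover counting error only.

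**Figure D2:**
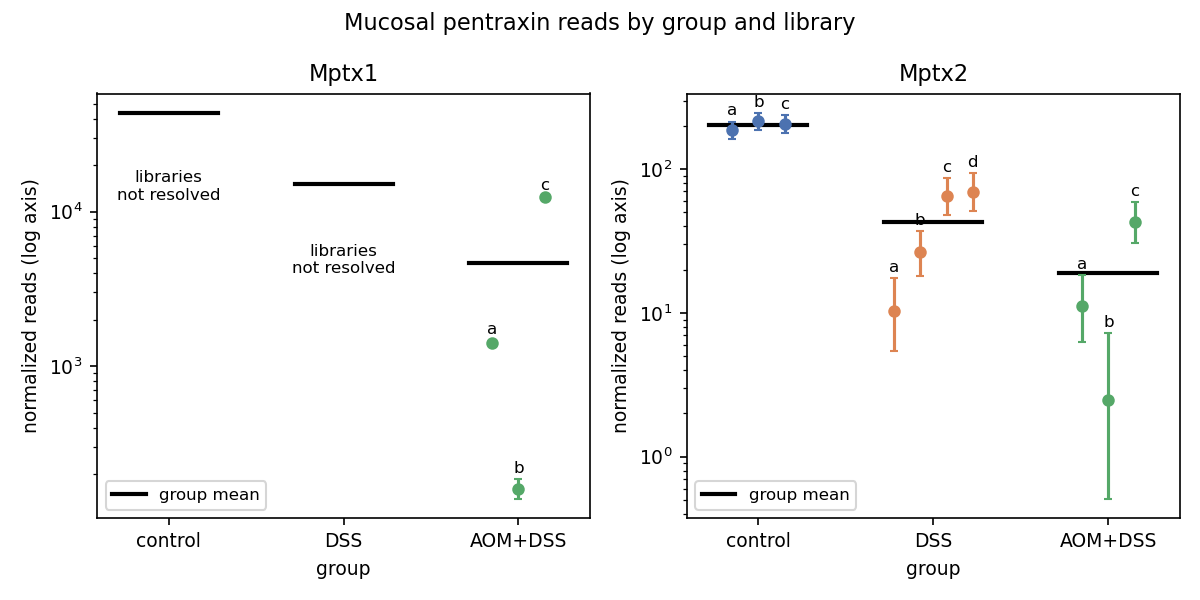
Normalized reads (log y axis) of Mptx1 (left) and Mptx2 (right) in control, DSS and AOM+DSS; points are single libraries with their letter and exact 95% counting interval, and black lines are group means. Mptx1 libraries are resolved in AOM+DSS only, from 160.5 to 12459, and the Mptx2 control libraries, 186.3 to 216.3, lie above all treated libraries, 2.481 to 69.8.

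In AOM+DSS both genes ran c, a, b from high to low. For Mptx2, library c held 76% of the group's normalized reads, and without it the mean was 6.818, 29.8-fold below control, with a log2 ratio of -4.90. Per kilobase, the Mptx1 mean was 214 times that of Mptx2 in control, 352 times in DSS and 246 times in AOM+DSS. Within AOM+DSS the ratio was 125 in library a, 64.3 in library b and 287 in library c. The exact 95% counting intervals of these ratios, 75.8 to 224, 21.7 to 314 and 210 to 404, all include the control value of 214. The control value is a ratio of means with unknown library spread, and library b rests on 3 Mptx2 reads. This overlap therefore does not show that the ratio was unchanged. Mptx2 reads equalled 0.464% of Mptx1 reads in control and between 0.346% and 1.55% in single AOM+DSS libraries. Whether some of the Mptx2 reads came from Mptx1, given the stretches both share, was not tested.

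The 3 AOM+DSS libraries also differed in their cell type markers. In bulk RNA, fewer cells of a type and less RNA per cell cannot be told apart. The 4 resolved of 5 colonocyte markers summed to 29323, 19495 and 50775 normalized reads in libraries a, b and c, against 51132 to 65081 in control. The order c, a, b was that of the mucosal pentraxins, but the colonocyte sum in library c was 88.9% of the control mean where Mptx1 was 28.5%. The 4 resolved of 7 goblet cell markers summed to 34596, 27248 and 43407, against 32830 to 43488 in control, in the same order. The 10 myeloid markers ran the other way, at 9138.2, 18369 and 6887, against 1378.7 to 2631.9 in control. In control libraries a and c, 1 of these 10 was at 0.

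Library c stood apart in smooth muscle. Its 7 smooth muscle markers summed to 13772 normalized reads, against 1402.4 and 1348.2 in libraries a and b and 852.7 to 2457.1 in control. A single smooth muscle marker was at 0, in library b. The 7 resolved of 11 pan-epithelial markers, by contrast, were close together at 116850, 124059 and 126773, against 100560 to 110170 in control. The part of these marker differences in the Mptx1 and Mptx2 values was not tested.

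**Figure D3:**
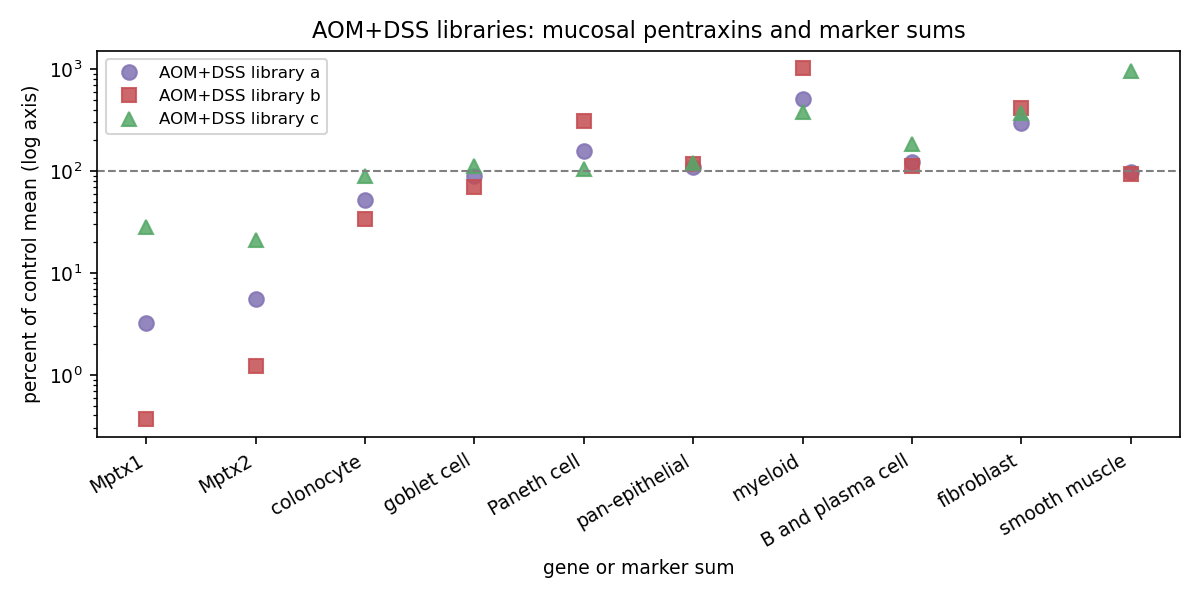
Level in each AOM+DSS library as a percent of the control mean (log y axis) for Mptx1, Mptx2 and the summed markers of 8 cell types (x axis), with a symbol for each library and a dashed line at 100%. Mptx1 spans 0.367% to 28.5% and Mptx2 1.22% to 21.2%, while the pan-epithelial sums lie between 110% and 119%.

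In DSS, Mptx2 was lower in the deeper libraries a and b, at 10.28 and 26.37 normalized reads, than in c and d, at 65.14 and 69.8. Libraries a and b also differed from each other, with exact 95% counting intervals of 5.471 to 17.57 and 18.03 to 37.22. With libraries c and d alone the DSS mean was 67.47, 3.01-fold below control, with a log2 ratio of -1.59. Libraries a and b also differed from c and d in their markers. The 10 myeloid markers summed to 4526.1 and 9322 normalized reads in a and b, against 2585.8 and 2791.9 for c and d. The 7 resolved of 9 B and plasma cell markers summed to 8835.5 and 3018.9, then to 1737.5 and 1872.1.

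They differed in a technical measure as well. Spearman's rho across 8370 genes, between a gene's deviation from its mean over all libraries and its GC content, was negative in DSS a and b, at -0.28 and -0.30, and positive in c and d, at 0.31 and 0.33. With transcript length rho was 0.40 and 0.29, then -0.34 and -0.36. Genes are not independent, and these values describe the libraries. The Mptx2 transcript has a GC content of 43.1%, and 14.8% of genes have less. The part of cell makeup, GC and length in the Mptx2 values was not tested.

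Other genes with a pentraxin domain were scarce in these crypts. Apcs, which encodes serum amyloid P, had 0 reads in all 10 libraries, which allows up to 3 reads in each. Crp had 1 read in all, in DSS library a. The long pentraxins Ptx3 and Ptx4 had no group mean above 0.864 normalized reads, nor did Nptxr, a neuronal pentraxin receptor. The neuronal pentraxin Nptx1 had means of 61.32 in control, 26.28 in DSS and 53.44 in AOM+DSS, and Nptx2 had 13.71, 11.11 and 34.8, none of them called. Svep1, a large extracellular adhesion protein with a pentraxin domain, had means of 8.274, 5.041 and 78.37 normalized reads. In the authors' deposited table Svep1 rose in AOM+DSS, with a log2 ratio of 3.24 and an adjusted DESeq p of 0.00062. Limma also called it, but not without control library a or AOM+DSS library a. The 8 fibroblast markers summed to 3111.2, 4348.3 and 3907.5 normalized reads in AOM+DSS libraries a to c, against 497.8 to 2109.5 in control, where 1 marker was at 0 in library c, and their part in the Svep1 rise was not tested. Of 8 family genes tested in DSS, 0 were called higher and 2 lower, and of 7 tested in AOM+DSS, 1 was called higher and 2 lower. The genes called lower were Mptx1 and Mptx2 themselves. The higher share over all genes was 2.61% in DSS and 5.54% in AOM+DSS.

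Molecules through which pentraxins are known to act rose in AOM+DSS. This list holds classical complement components, Fc receptors and opsonin partners. In DSS, 2 of 16 tested genes rose and 0 fell, with a median log2 ratio of 0.97 beside 0.02 over all genes. Limma called 1 there, and 6 without control library b, where its share of all genes in either direction was 5.66% and 6.7%. In AOM+DSS, 13 of 16 rose and 0 fell, with a median of 3.01 beside 0.02. Over all genes, 2.61% rose in DSS and 5.54% in AOM+DSS. The count in AOM+DSS depended on single libraries. Limma called 12 of 16 higher with all libraries, but 2 without control library a and 3 without control library c. Without AOM+DSS library a or b it called 4. The limma share of all genes, in either direction, also fell, from 17.3% to 2.92%, 3.86%, 3.93% and 7.94% in that order. C2, a protease of the classical complement pathway, had 74.34, 139.2 and 65.67 normalized reads in control and 636.3 to 1286.2 in AOM+DSS, with no overlap. The authors' deposited tables gave C2 a log2 ratio of 2.57 in DSS (adjusted DESeq p = 6.41e-05) and 3.49 in AOM+DSS (adjusted DESeq p = 5.08e-08). C1qa, a chain of the complement component that pentraxins bind, had 25.1, 163.9 and 6.355 normalized reads in control and 362.1, 663.4 and 551.3 in AOM+DSS. The authors' deposited table gave C1qa a log2 ratio of 3.01 and an adjusted DESeq p of 2.53e-05.

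C3, the central complement component, had means of 466.1 in control, 1365.3 in DSS and 2125.2 in AOM+DSS, and was called higher in both comparisons. C1qc was called higher in AOM+DSS, from a mean of 50.39 to 399.3. The 3 tested partner genes that were not called in AOM+DSS, named after their values were seen, were C1ra, C1s and Fcna. Myeloid cells also make C1q and Fc receptors, and the myeloid marker sums given above were higher in all AOM+DSS libraries than in any control library. Fcer1g stands in both the partner list and the myeloid markers, and the part of myeloid cells in the rise was not tested.

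Paneth cell genes, among which Mptx2 is counted in the small intestine, rose in AOM+DSS while Mptx2 was lower. Of 16 tested in AOM+DSS, 9 rose and 1, Clps, fell, where 5.54% of all genes rose and 3.35% fell. However, 8 of the 16 had a control mean of 0, were tested only through their AOM+DSS reads and could only rise. Of 9 tested in DSS, 1 rose and 0 fell, where 2.61% of all genes rose. The 1 that rose, Guca2b, also stands in the absorptive colonocyte list and is the 1 that rose there in DSS. Lyz1, the Paneth cell lysozyme, had 34.76, 246.9 and 33.89 normalized reads in control libraries a, b and c, and 7785.6, 15912 and 2342.1 in those of AOM+DSS. The order of Lyz1, b, a, c, was the reverse of that of both mucosal pentraxins and the same as that of the myeloid marker sums. Defa20 and Ang4, given below, had other orders. Defa20, an alpha-defensin, had 0 reads in all control and DSS libraries and 599.3, 392.9 and 476.1 normalized reads in AOM+DSS. The authors' deposited table gave Defa20 an adjusted DESeq p of 1.14e-33 against control.

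Defa17, Defa21 and Defa22 were likewise at 0 in control and had means of 99.38, 105.9 and 126.5 in AOM+DSS. Alpha-defensin genes are near-identical, so how their reads were split is uncertain. Defa24 had 0 reads in every library. Ang4, a secreted antimicrobial ribonuclease on the same list, had 4923, 10417 and 8918.4 normalized reads in control and 1177.1, 2107.6 and 4067.7 in AOM+DSS, and was chosen after its values were seen. It was not called. The 6 Paneth cell markers summed to 5178.9 to 11259 normalized reads in control and to 8948.5 to 26668 in AOM+DSS, with 2 of the 6, Defa17 and Defa24, at 0 in control.

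Goblet cell and deep crypt secretory genes included several that fell. In DSS, 1 of 20 rose (Galnt12, by 0.65 on the log2 scale) and 2 fell (Reg4 and Creb3l4), with a median log2 ratio of 0.06. In AOM+DSS, 0 of 20 rose and 4 fell, with a median of -0.33. Over all genes, 2.61% rose and 1.78% fell in DSS, and 5.54% rose and 3.35% fell in AOM+DSS. Limma, over the 17 resolved in AOM+DSS, called 3 higher and 2 lower, where it called 10.8% of all genes higher and 6.48% lower. Reg4, a lectin of the deep crypt secretory cells of the colon, had control libraries at 16453, 15173 and 23663 normalized reads and AOM+DSS libraries at 5463.3, 3315.2 and 6547.9, with no overlap. The authors' deposited tables gave Reg4 a log2 ratio of -1.10 in DSS (adjusted DESeq p = 0.01) and -1.85 in AOM+DSS (adjusted DESeq p = 8.2e-06). Its highest AOM+DSS library was c and its lowest b, as for the mucosal pentraxins, but its range there was far narrower. Clca3, a goblet cell product, and the secretory cell factors Creb3l1 and Creb3l4 also fell in AOM+DSS, with log2 ratios of -0.91, -0.91 and -0.92.

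Among other secreted defence proteins more rose than fell. In DSS, 5 of 21 rose and 1 fell, with a median log2 ratio of 3.38, and in AOM+DSS, 9 of 21 rose and 1 fell, with a median of 3.75. These medians count 3 genes with a control mean of 0 as infinite, and with 1 added to all means they were 0.97 and 1.96. Over all genes, 2.61% rose and 1.78% fell in DSS, and 5.54% rose and 3.35% fell in AOM+DSS. Limma called 5 of 11 resolved genes higher in DSS, but 2 without control library a or c. The limma share of all genes, in either direction, also fell, from 5.66% to 0.964% and 1.08%. Slpi, a protease inhibitor with antimicrobial activity, had 139, 163 and 56.14 normalized reads in control and 1723.7, 1656.8 and 1440.6 in AOM+DSS. The authors' deposited tables gave Slpi a log2 ratio of 3.66 in DSS (adjusted DESeq p = 2.43e-15) and 3.75 in AOM+DSS (adjusted DESeq p = 9.77e-15). Reg3g, an antibacterial lectin, rose from a control mean of 22.75 to 6734.8 in AOM+DSS. S100a9, a calprotectin subunit of neutrophils, rose from 0.6823 to 786.1 in DSS, and it is also a myeloid marker. Dmbt1, a mucosal scavenger receptor, rose from 53745 to 105433 in DSS and 139975 in AOM+DSS.

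The exception was Wfdc2, a secreted protein with antiprotease domains, which was called lower in both comparisons. It had 8353.4, 5985.8 and 9161 normalized reads in control and 1489.4, 756.8 and 2991.7 in AOM+DSS, with no overlap and with the order c, a, b. The authors' deposited tables gave Wfdc2 a log2 ratio of -1.58 in DSS (adjusted DESeq p = 6.95e-05) and -2.17 in AOM+DSS (adjusted DESeq p = 1.34e-07). Genes of the liver acute phase, the response in which C-reactive protein and serum amyloid P are best known, were not called by the authors in DSS. There, 0 of 14 were called by DESeq, 4 had an unadjusted p under 0.05, limma called 1 (Saa3, higher), and the median log2 ratio was -0.27. The share called over all genes, in either direction, was 4.39% by DESeq and 5.66% by limma. A DESeq count of 0 among 14 genes therefore says little about this list. The serum amyloid A genes Saa1 and Saa3 had log2 ratios of -0.53 and 5.06 in DSS. In AOM+DSS, 3 of 14 rose, namely Hp, Lbp and Cp, and 0 fell, where 5.54% of all genes rose.

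Absorptive colonocyte genes held 1 that rose and 2 that fell among 16 in DSS, and 0 and 2 in AOM+DSS, with medians of 0.15 and -0.50, where 1.78% and 3.35% of all genes fell. Limma called 1 of 12 resolved genes lower in AOM+DSS, and 5 without AOM+DSS library c. The limma share of all genes, in either direction, also rose there, from 17.3% to 24.0%. Slc20a1, a phosphate transporter, fell from a control mean of 19124 normalized reads to 3622.5 in DSS and 3178.5 in AOM+DSS. Car2, a carbonic anhydrase, fell from 17371 to 10455 and 9604.7. The authors' deposited tables gave Slc20a1 log2 ratios of -2.40 and -2.59, with adjusted DESeq p of 2.62e-18 and 1.85e-17. Mptx1 and Slc20a1 thus shared a high control level, but Slc20a1 was at nearly the same mean in both treated groups.

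Between the treatments, limma over 15400 resolved genes called 2.42% of genes higher in AOM+DSS than in DSS and 0.0909% lower. Of the partner genes, 4 of 16 were higher in AOM+DSS, namely C1qa, C1qb, C1qc and C4b, and 0 were lower, but 2 were higher without AOM+DSS library a, and 0 without library b or at a threshold of 0.01. The share of all genes called, in either direction, also fell, from 2.51% to 0.524%, 0.572% and 0.552% in that order. Of the Paneth cell genes, 11 of 14 were higher and 0 lower. In each DSS library at least 8 of the 15 resolved genes of that list were at 0, and a gene at 0 in DSS could only rise. Of the pentraxin family, Svep1 was higher and the other 6 tested were not called, and the Svep1 call was lost without AOM+DSS library a or b. Mptx1 was not in this fit, since its DSS libraries were not resolved.

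**Figure D4:**
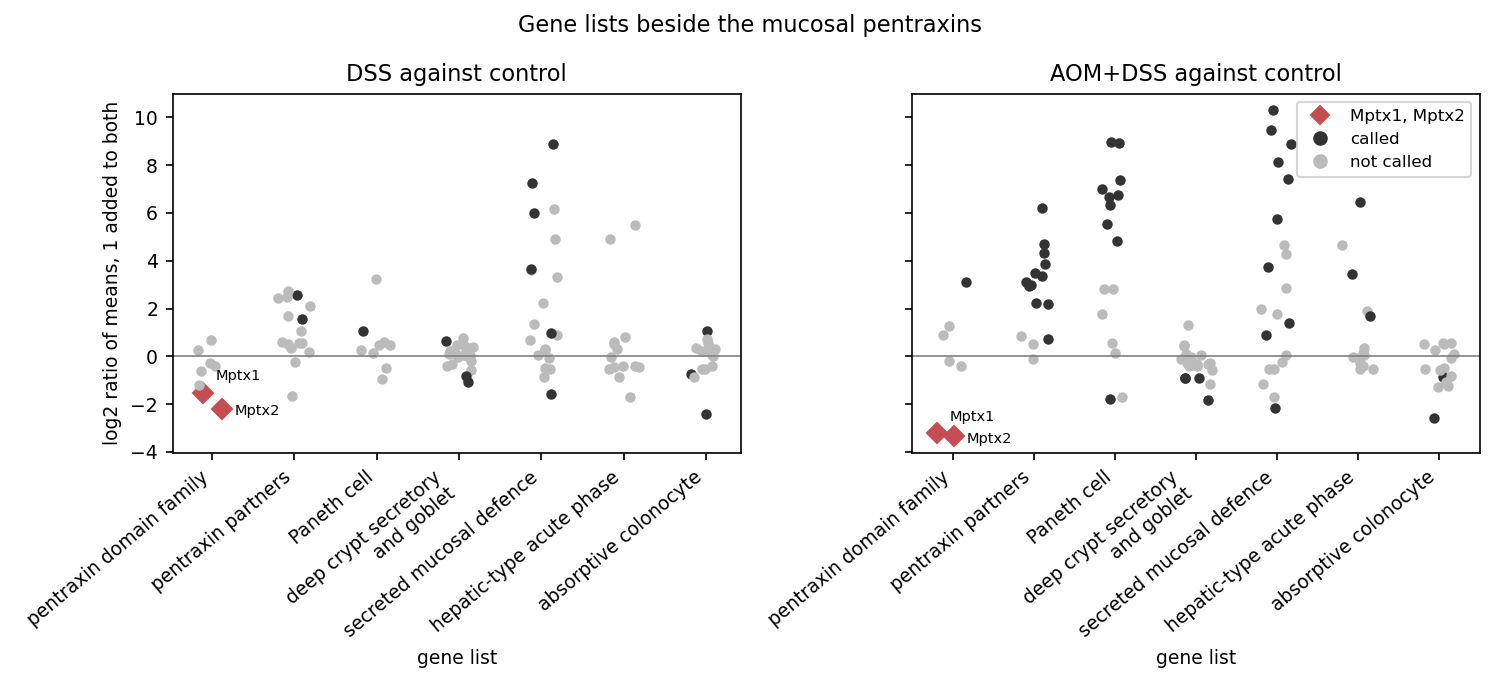
Log2 of treated over control mean, with 1 added to both (y axis), for the genes of 7 lists (x axis) in DSS (left) and AOM+DSS (right); dark points were called by the authors, grey points were not, and diamonds are Mptx1 and Mptx2. The mucosal pentraxins lie at the bottom of the pentraxin domain family in both panels, while 13 of 16 partner genes and 9 of 16 Paneth cell genes were called higher in AOM+DSS. Of these 16 Paneth cell genes, 8 had a control mean of 0 and could only rise.

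Among 8928 genes with a mean of at least 50 normalized reads and resolved in all 10 libraries, 8 had the profiles most like that of Mptx2. Genes left unresolved in DSS, all with a mean there of at least 1050.4, could not be considered. Likeness was Pearson's r of log2(normalized reads + 1), given as a description over libraries that share 3 groups. Among the 8 genes, Nudt19 had an r of 0.988, Ggact 0.986, Selenbp2 0.981 and Ggt6 0.980. Tnni1, a troponin subunit, had 0.977, Hspb11 0.976 and Acer1, an alkaline ceramidase, 0.972. Each of these was highest in the control mean and lowest in the AOM+DSS mean, but by smaller folds than for Mptx2.

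Selenbp2 and Tnni1 differed most between the groups among the genes named. Selenbp2 had means of 2110.4, 847.5 and 457.1 normalized reads in control, DSS and AOM+DSS, and Tnni1 had 2270.7, 898.8 and 482.7. Over the AOM+DSS libraries in letter order, Selenbp2 had 382.2, 209.3 and 780 normalized reads, and Tnni1 had 475.2, 208.4 and 764.5. These genes were picked for following Mptx2 over the same libraries, so their order there is no further finding. No such set was drawn for Mptx1, whose libraries were resolved in AOM+DSS only.

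The genes beside the mucosal pentraxins on chromosome 1 were mostly silent. Of the 3 neighbours on either side of each gene, 10 had a row, and 7 stayed under 10 normalized reads in every group. Next to Mptx2, the cytosolic DNA sensor Aim2 had means of 1730.6, 1954.7 and 2027.1 in control, DSS and AOM+DSS, and Fcer1a, a chain of the mast cell IgE receptor, had 0, 2.216 and 49.45. Neither was called in the authors' deposited tables. Limma on the recovered reads called Fcer1a higher in AOM+DSS. Neighbours were taken from the GRCm38 gene table.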

How the data were processed

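The 2 deposited tables compare DSS and AOM+DSS with control. Mapping was to mm9 with TopHat2 2.0 and testing was by DESeq, per the submitters' processing notes. For the DESeq version, counter, annotation and strand setting, each is not given in the sources used here, and the library kit does not mark the strand. The deposited signal values are group means of normalized read counts, per the file headers. The authors' fold (a ratio) divides the treated by the control mean, and their log2 column is its logarithm. Deposited p-values come from DESeq, adjusted by Benjamini-Hochberg, per the file headers. A deposited adjusted p under 0.05 made a gene called. One header speaks of more AOM+DSS replicates than the 3 in the labels, and the overall means of all 18334 genes tested match 3.

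Whole reads per library were recovered where exactly 1 combination matched the printed means. The method and limma were tested on simulated data. Limma 3.58.1 (R 4.3.3, trend) on log2(normalized reads + 1) compared AOM+DSS with DSS over 15400 genes and served as an alternative test. No column holds counts of single samples, and a count test on the recovered reads was not run. Library pairs of 1 group differed beyond sampling noise, with a chi-square per degree of freedom of 3.86 to 71.4 over 12 pairs. Intervals are exact at 95%, Poisson for levels and binomial for the ratio of Mptx1 to Mptx2.

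The members, the 7 lists (112 genes, some in several lists) and the tests were chosen with earlier results of these data known. Named were all family genes, up to 4 called genes of each list with the smallest adjusted p (2 with the highest mean where none was called), the 8 genes most like Mptx2, 3 neighbours on either side, and Actb, Gapdh and Hprt. Lyz1, Defa24, Ang4, Clps and Fcer1g were named after their values were seen, neighbours that stayed under 10 normalized reads are not named, and a few genes the rule selects are not reported here. Sequences are from RefSeq (GRCm38.p6) and GENCODE M21; both genes matched by symbol.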

Additional observations from a re-analysis of the deposited data

How the results depend on the processing

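Of 61 alternative values of the Mptx1 and Mptx2 ratios, 0 changed sign. This count shows little, since for many settings the sign was fixed in advance. A constant added to both means keeps it, and every treated Mptx2 library was below every control library. Mptx1 in DSS against control had a log2 ratio of -1.51 under TMM and -1.55 under upper quartile scaling, against -1.53. Leaving out each of the 3 AOM+DSS libraries in turn gave Mptx1 -5.80 to -2.66 in AOM+DSS against control and -4.28 to -1.13 against DSS. For Mptx1 no control or DSS library could be left out. Leaving out each library of both groups gave Mptx2 -2.58 to -1.92 in DSS against control, -4.90 to -2.90 in AOM+DSS against control and -2.65 to -0.66 against DSS. The lowest values against control in AOM+DSS were those without AOM+DSS library c. Without DSS libraries a and b, chosen after seeing the data, the log2 ratio of Mptx2 in AOM+DSS to DSS was -1.84.

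Called list genes numbered 16 in DSS, 10 with limma (56 genes tested, since highly expressed genes were unresolved in DSS), 8 at a threshold of 0.01 and 3 to 13 with limma without 1 library. They numbered 45 in AOM+DSS and 23 to 53 without 1 library, and between the treatments 18, with 10 at 0.01 and 9 to 22 without 1 library. The counts of 16 and 45 include Mptx1 and Mptx2, which were selected on these means. The share of all genes called was 4.39% in DSS, with 6.59% at means of at least 10, 2.55% at 0.01 and 0.964% to 6.70% without 1 library. It was 8.89% in AOM+DSS, with 17.3% by limma, 5.35% at 0.01 and 2.92% to 24.0% without 1 library. Between the treatments it was 2.51%, with 0.552% at 0.01 and 0.524% to 3.99% without 1 library. The lowest counts and shares against control were those without control library a (for the DSS list count also without control library c), and between the treatments those without AOM+DSS library a or b. Control library b had the highest fibroblast and myeloid marker sums of the controls, 2109.5 and 2631.9 normalized reads. Control libraries a and c had 570.6 and 497.8 for the fibroblast markers, and 1378.7 and 1415.1 for the myeloid markers. The causes of the changes in counts and shares were not tested. Of the 8 genes most like Mptx2, 2 stayed among the top 8 by Spearman's rho and 4 with a pseudocount of 10.

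No paired analysis was possible because the columns carry no replicate numbers and the recovered libraries are known only by depth. Depth limits Mptx2 in AOM+DSS, where library b rests on 3 reads.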
